A study of Mus musculus with 6 samples.

Results

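The genes described here are the chemokines and their receptors, 29 genes out of 13146 that the array table names by a single symbol. They were chosen by symbol alone: every gene whose name begins with Ccl, Cxcl, Ccr, Cxcr, Cx3cr or Ackr followed by a number, with 1 interferon-induced CXC ligand left out because it belongs with the interferon genes. The set held 18 ligands (11 CC and 7 CXC) and 11 receptors (4 CC, 3 CXC, 1 CX3C and 3 atypical). The samples were Lin-/Sca1-/cKit+ cells, a sorted fraction that lacks lineage markers and Sca1 and carries the receptor Kit. In 3 samples, labelled wild-type, these cells came from bone marrow of MF1 mice. In the other 3, labelled leukemia, they came from spleen of wild-type MF1 mice that had been lethally irradiated and transplanted with hematopoietic progenitors transduced with AE9a, a truncated form of the AML1-ETO fusion protein. All mice were 12 to 16 weeks old. The leukemia samples came from 3 numbered mice, while the wild-type samples are labelled with mice in the plural, so pooling is possible, and every p-value rests on the spread among these arrays alone. The wild-type mice are not described as irradiated or transplanted, and marrow was set against spleen, so leukemia, organ and transplantation cannot be told apart in any difference given here. In bulk samples such as these, fewer cells that express a gene and less RNA per cell cannot be told apart either.

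Chemokines are small secreted proteins that guide cells along a gradient, and they are grouped as CC, CXC or CX3C by the spacing of conserved cysteines near the start of the mature protein. Their receptors sit in the membrane and signal through inhibitory G proteins, whereas the atypical receptors, named Ackr, bind chemokines without that signal and mostly take them up. In bone marrow, Cxcl12 made by stromal cells and its receptor Cxcr4 on hematopoietic cells are known for retaining progenitors, and Ccr2 is known for the release of monocytes. Several CC ligands are products of myeloid cells themselves.

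Each gene was read from its brightest probe set, as log2 of the deposited intensity. A gene was called dim, and not tested, unless it reached the 40th percentile of all probe sets of its array on at least 3 of the 6 arrays, which lay at 5.39 to 5.54 log2. By that rule 11 of the 29 genes were tested and 18 were dim, whereas 73.9% of all measured genes were tested. Of the 11 tested genes, 6 fell in leukemia (limma, adjusted p under 0.05), 5 did not pass and 0 rose; at an unadjusted limma p under 0.05, 2 were higher (Ackr4 and Ccl17). The ones that fell were the CC ligands Ccl9, Ccl6 and Ccl5 and the receptors Cxcr4, Ccr2 and Cx3cr1. Over all 9715 genes tested, 25.2% were called lower and 16.9% higher. Each of the 6 lay above the percentile on all wild-type arrays and below it on all leukemia arrays. They were thus tested only because of their wild-type level, and their number among the 11 carries no weight as a share. Over the whole set of 29, the median difference between leukemia and wild-type was 0.004 log2, beside -0.044 over all genes measured. The groups did not overlap, with leukemia lower, for 8 of the 29 (27.6%), beside 30.8% of all genes measured. They did not overlap with leukemia higher for 4 of the 29, beside 21.5%. By the count without overlap the set as a whole was near the background for lower genes and below it for higher ones. The set also held a larger share of dim genes than the background did.

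**Figure D1:**
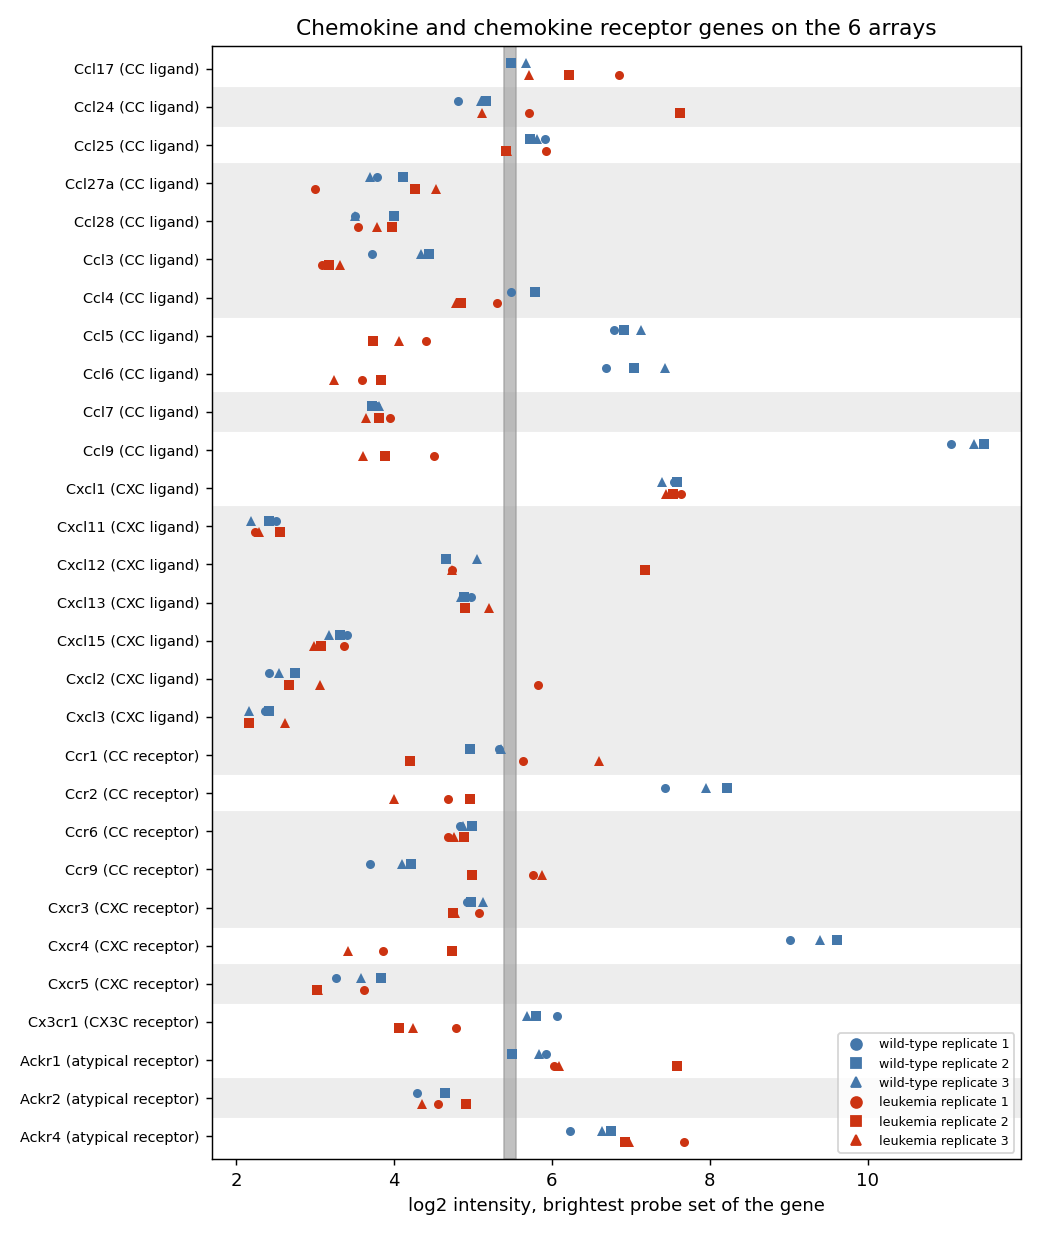
Log2 intensity of the 29 chemokine and receptor genes on the 6 arrays, with wild-type in blue and leukemia in red; shaded rows are the 18 dim genes and the grey band is the range of the 40th percentile over the arrays (5.39 to 5.54). Levels are to be compared within a row only. The 6 genes that fell, among them Ccl9 and Cxcr4, have every wild-type point right of the band and every leukemia point left of it.

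The start-site regions of 4 of the genes that fell are shown, because Ccl9 and Ccl6 are immediate neighbours that fell together and because Cxcr4 and Cx3cr1 are the receptors among the 6 with a match to a searched motif. The sequences are from RefSeq, build GRCm38.p6, and 23 of the 29 genes matched that table (Ccl4, Ccl5, Ccl7, Ccl24, Cxcl11 and Cxcr5 did not). Each runs 5′ to 3′ on the gene's own strand from upstream of the annotated start to shortly after it, and capitals mark the searched motifs on either strand: TGTGGT for RUNX factors, AGGAAG for PU.1 and other ETS factors, TTGCNNAA for C/EBP and TATAAA for the TATA box. Ccl9 is at chr11:83578587-83578886, Ccl6 at chr11:83593038-83593337, Cxcr4 at chr1:128592250-128592549 and Cx3cr1 at chr9:120068247-120068546, all on the minus strand.
Ccl9: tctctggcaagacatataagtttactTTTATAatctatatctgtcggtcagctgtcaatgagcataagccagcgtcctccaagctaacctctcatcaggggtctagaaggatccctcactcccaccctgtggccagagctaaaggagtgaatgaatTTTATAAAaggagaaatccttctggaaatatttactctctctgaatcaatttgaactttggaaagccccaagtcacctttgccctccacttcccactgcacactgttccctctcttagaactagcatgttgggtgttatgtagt
Ccl6: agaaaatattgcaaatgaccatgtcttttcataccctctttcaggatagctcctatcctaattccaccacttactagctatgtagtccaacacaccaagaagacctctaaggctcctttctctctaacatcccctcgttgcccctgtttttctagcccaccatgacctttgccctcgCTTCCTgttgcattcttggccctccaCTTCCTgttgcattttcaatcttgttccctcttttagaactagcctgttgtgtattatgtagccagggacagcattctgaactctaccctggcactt
Cxcr4: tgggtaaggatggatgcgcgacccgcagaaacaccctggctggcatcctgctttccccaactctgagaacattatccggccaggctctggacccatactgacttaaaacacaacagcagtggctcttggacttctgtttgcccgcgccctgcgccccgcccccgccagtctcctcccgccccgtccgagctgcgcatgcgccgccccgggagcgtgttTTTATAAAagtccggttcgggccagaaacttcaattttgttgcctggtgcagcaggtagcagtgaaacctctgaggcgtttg
Cx3cr1: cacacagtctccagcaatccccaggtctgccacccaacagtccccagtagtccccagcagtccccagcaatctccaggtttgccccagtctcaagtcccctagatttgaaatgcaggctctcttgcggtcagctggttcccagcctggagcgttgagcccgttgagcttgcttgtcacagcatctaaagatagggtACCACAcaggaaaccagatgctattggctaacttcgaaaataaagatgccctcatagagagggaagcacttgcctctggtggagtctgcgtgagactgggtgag
In Cxcr4, the TATA box letters began at position -30 from the start, where such a box usually lies, and overlapped a second match on the other strand. In Ccl9 they began at position -92, again overlapping a match on the other strand, with a further match at -224. The PU.1/ETS letters occurred at 2 places in Ccl6, beginning at positions -73 and -47, and the RUNX letters at 1 place in Cx3cr1, beginning at position -54. Of the 5 fallen genes with an entry, 1 held the RUNX letters, 1 the PU.1/ETS letters, 0 the C/EBP letters and 2 the TATA letters. Among all 32851 promoters of that length the shares were 16.8%, 35.4%, 10.8% and 13.6%. Such matches are a description of letters and not of binding, and the motifs were chosen after the values had been seen.

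Around their start sites the neighbours Ccl9 and Ccl6 also resembled each other in sequence. A local alignment covered 74 columns with 59 identical (79.7%), running from position -18 to 49 around the start in Ccl9 and from -59 to 15 in Ccl6. The longest run in common was gccctccacttcc, 13 bases long. Against the other 25 member promoters, some of them alternative starts of 1 gene, the longest run that Ccl9 had in common was 7 to 11 bases, with 11 for Cxcr4. No alignment was made with those promoters, so whether the resemblance is particular to the neighbours was not tested.

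Among the ligands, Ccl9 changed most. Ccl9 encodes a CC chemokine made by myeloid cells that acts on Ccr1. It was at 11.06, 11.47 and 11.35 log2 on wild-type arrays 1 to 3 and at 4.51, 3.88 and 3.61 on leukemia arrays 1 to 3. It was high on every wild-type array and below the 40th percentile on every leukemia array, with no overlap. Its mean was 11.29 ± 0.21 in wild-type and 4.0 ± 0.46 in leukemia (SD, n = 3 each), so that it fell by 7.30 ± 0.25 SE (limma adjusted p = 5.79e-06). That is 157-fold, or 58.9-fold when values below the percentile were first raised to it, a setting that does not rest on the dim leukemia values. The other probe set of Ccl9 gave a change of -7.81.

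Ccl6, which encodes a closely related CC chemokine of myeloid cells, lies next to Ccl9. It was at 6.68, 7.04 and 7.43 log2 in wild-type and at 3.60, 3.84 and 3.24 in leukemia. The groups did not overlap, with every leukemia array below the percentile. Ccl6 fell by 3.49 ± 0.25 SE (7.05 ± 0.38 to 3.56 ± 0.30, SD, n = 3 each; limma adjusted p = 8.58e-05), and fell by 1.63 with values raised to the percentile. Its other probe set, dim on all 6 arrays, was also lower in leukemia without overlap, with a difference of -1.30.

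Ccl5, also called RANTES, attracts T cells, monocytes and eosinophils. It was at 6.78, 6.91 and 7.13 log2 in wild-type and at 4.41, 3.73 and 4.06 in leukemia, again with no overlap. It fell by 2.87 ± 0.22 SE (limma adjusted p = 9.58e-05), and fell by 1.53 with values raised to the percentile. For both Ccl6 and Ccl5 the size of the fall thus depended on how dim values were handled, while the call did not.

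The remaining tested ligands did not pass. Ccl17, a ligand of Ccr4 made by dendritic cells, was at 5.47, 5.48 and 5.67 log2 in wild-type and at 6.85, 6.21 and 5.71 in leukemia. The groups did not overlap, but leukemia replicate 3 was close to the highest wild-type array, and the difference of 0.72 ± 0.29 SE did not pass (limma adjusted p = 0.0868). It passed without leukemia replicate 3 (0.99, limma adjusted p = 0.0196) and was 0.42 without leukemia replicate 1, the array that carried the highest value. Ccl25, which draws developing T cells to the thymus and gut, differed by -0.22 ± 0.19 SE (limma adjusted p = 0.375), with overlapping groups, and by -0.39 without leukemia replicate 1 (limma adjusted p = 0.0757). Its other probe set, dim on all arrays, was lower in leukemia without overlap (-0.74). Cxcl1, a neutrophil attractant, lay at 7.40 to 7.58 in wild-type and 7.45 to 7.64 in leukemia, and its difference of 0.04 ± 0.13 SE did not pass (limma adjusted p = 0.840). Its single probe set is of a kind that can read several transcripts, so Cxcl1 was not tested where such probe sets were left out.

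Among the 12 dim ligands, Cxcl12, Ccl24 and Cxcl2 were each by far highest on 1 leukemia array. Cxcl12, the ligand of Cxcr4, was at 4.66, 4.66 and 5.05 log2 in wild-type and at 4.74, 7.18 and 4.73 in leukemia, so that array 2 was high. Its other probe set repeated that pattern, at 4.27 to 4.42 in wild-type, 4.07 and 4.08 on arrays 1 and 3 and at 6.36 on array 2. Ccl24, an eosinophil attractant acting on Ccr3, was at 4.81 to 5.16 in wild-type and, in leukemia replicates 1 to 3, at 5.71, 7.62 and 5.11, so its high value fell on the same array. Cxcl2, a neutrophil attractant of the same kind as Cxcl1, was at 2.41 to 2.74 in wild-type and at 5.82, 2.67 and 3.06 in leukemia, by far highest on leukemia array 1. With no filter on dim genes the differences of Cxcl12 (0.76, limma adjusted p = 0.399), Ccl24 (1.12, 0.190) and Cxcl2 (1.29, 0.236) did not pass. On leukemia array 2, the summed intensity of 7 stromal and endothelial markers was 144.7, beside 178.4 and 140.1 on leukemia arrays 1 and 3 and 511.4 to 603.8 in wild-type. That of 7 macrophage markers was 193.9 there, beside 158.1 and 151.3 on the other leukemia arrays and 496.3 to 659.1 in wild-type. That of 7 mast cell and basophil markers was 21742.7 there, beside 12708.1 and 14809.2 on the other leukemia arrays and 4388.9 to 4854.5 in wild-type. Highest on array 2 were, on leukemia arrays 1 to 3, Cpa3 (10.94, 12.30 and 9.75 log2) and Fcer1a (10.16, 11.56 and 9.01). So were the protease genes Mcpt4 (4.57, 7.32 and 4.56) and Mcpt8 (3.95, 5.02 and 3.35). Ms4a2 (12.52, 12.84 and 12.82), Hdc (11.63, 12.42 and 12.43) and Cd200r3 (8.95, 9.45 and 9.32) were near level on arrays 2 and 3. The part of these cells in the high values of array 2 was not tested.

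Ccl3 and Ccl4, inflammatory ligands that follow Ccl6 on the chromosome, were dim but lower in leukemia without overlap. Ccl3 was at 3.72, 4.44 and 4.34 log2 in wild-type and 3.09, 3.18 and 3.31 in leukemia, and Ccl4 at 5.48, 5.78 and 5.78 against 5.30, 4.85 and 4.78. With no filter both were called lower (limma adjusted p = 0.00972 for Ccl3 and 0.0291 for Ccl4), where 21.0% of all genes were. Ccl3 did not reach the percentile on any array, so its difference lies wholly among dim values. The annotated genes Ccl3 and Ccl4 overlap each other, and whether a probe set reads both was not tested. The other 7 dim ligands, Ccl7, Ccl27a, Ccl28, Cxcl3, Cxcl11, Cxcl13 and Cxcl15, overlapped between the groups and differed by -0.15 to 0.10.

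Among the receptors, Cxcr4 changed most. It was at 9.02, 9.61 and 9.39 log2 in the 3 wild-type samples and at 3.86, 4.73 and 3.42 in the 3 leukemia samples. Every wild-type array was far above every leukemia array. Cxcr4 fell by 5.34 ± 0.34 SE (9.34 ± 0.30 to 4.01 ± 0.67, SD, n = 3 each; limma adjusted p = 5.18e-05), which is 40.4-fold, or 15.2-fold with values raised to the percentile. A single probe set measured it.

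Ccr2, the receptor for monocyte-attracting CC ligands such as Ccl7, was at 7.43, 8.22 and 7.95 log2 in wild-type and at 4.68, 4.96 and 4.0 in leukemia. All wild-type arrays were above all leukemia arrays. It fell by 3.32 ± 0.31 SE (limma adjusted p = 2.59e-04), and also fell by 2.45 with values raised to the percentile. Its 4 probe sets were all lower in leukemia without overlap, by -3.32, -2.65, -1.33 and -0.68, and their mean fell by 2.00 (limma adjusted p = 8.28e-04), so the direction was common to the probe sets and the size was not.

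Cx3cr1, the receptor for the membrane-bound chemokine Cx3cl1 and a marker of monocytes and their precursors, was at 6.06, 5.80 and 5.69 log2 in wild-type and at 4.78, 4.06 and 4.24 in leukemia. The groups did not overlap, but the wild-type values lay close above the percentile. It fell by 1.49 ± 0.23 SE (limma adjusted p = 0.00243). With values raised to the percentile the fall was 0.44 (limma adjusted p = 0.0256), the smallest of the 6 in that setting.

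**Figure D2:**
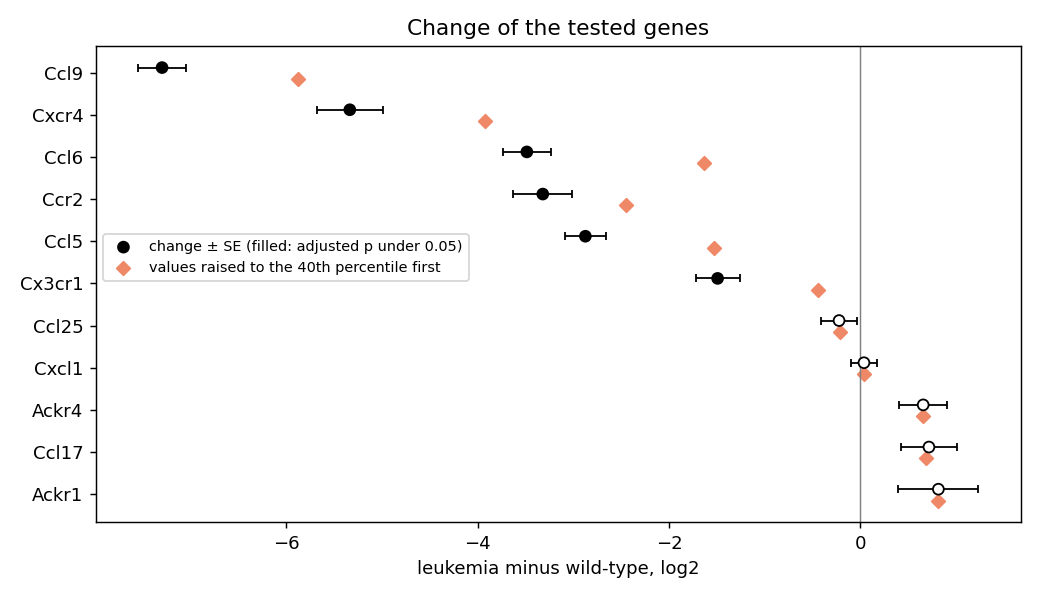
Log2 change in leukemia relative to wild-type of the 11 tested genes, with bars for the SE (n = 3 arrays per group) and filled circles for adjusted p under 0.05; diamonds give the change with values below the 40th percentile raised to it. The 6 genes that fell stay left of zero in both, from -7.30 (Ccl9) to -1.49 (Cx3cr1), or from -5.88 to -0.44 for the diamonds.

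The atypical receptors Ackr1 and Ackr4 were higher on each leukemia array than on any wild-type array, but neither passed. Ackr1, the red cell and venule receptor also known as the Duffy antigen, was at 5.93, 5.50 and 5.83 log2 in wild-type and at 6.02, 7.58 and 6.09 in leukemia, so that array 2 carried most of the difference (0.81 ± 0.42 SE, limma adjusted p = 0.159; 0.31 without leukemia replicate 2). Ackr4, which takes up Ccl19, Ccl21 and Ccl25, was at 6.23, 6.75 and 6.63 against 7.67, 6.92 and 6.98 (0.65 ± 0.25 SE, limma adjusted p = 0.0745), with array 1 highest. Its difference was 0.42 without leukemia replicate 1 (limma adjusted p = 0.119). With the fluidics run as a block, which sets leukemia replicate 1 alone against wild-type, the difference of Ackr4 was 1.13. The probe sets of Ackr4 agreed closely (0.65 and 0.61). In the annotation Ackr4 lies inside Acad11 and Ackr1 overlaps Cadm3, and whether their probe sets also read transcripts of those genes was not tested. Ackr2, which takes up inflammatory CC ligands, was dim on all arrays and differed by 0.09.

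Ccr9, the receptor for Ccl25, was the 1 member called higher with no filter on dim genes (limma adjusted p = 0.00523), where 13.4% of all genes were. It was at 3.69, 4.22 and 4.10 log2 in wild-type and at 5.76, 4.99 and 5.88 in leukemia. All leukemia arrays were above all wild-type arrays, and leukemia arrays 1 and 3 reached the percentile. The other 3 probe sets of Ccr9 were dim on all arrays and differed by 0.97, 0.75 and 0.05. Only the probe set at 0.05 is not of the kind that can read several transcripts. Ccr1, the receptor for Ccl9, Ccl6, Ccl5 and Ccl3, was at 5.33, 4.96 and 5.35 in wild-type and was scattered in leukemia, at 5.63, 4.20 and 6.60 (difference 0.26 with no filter, limma adjusted p = 0.750). The remaining receptors, Ccr6, Cxcr3 and Cxcr5, were dim on every array, overlapped between the groups and differed by -0.33 to -0.12.

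**Figure D3:**
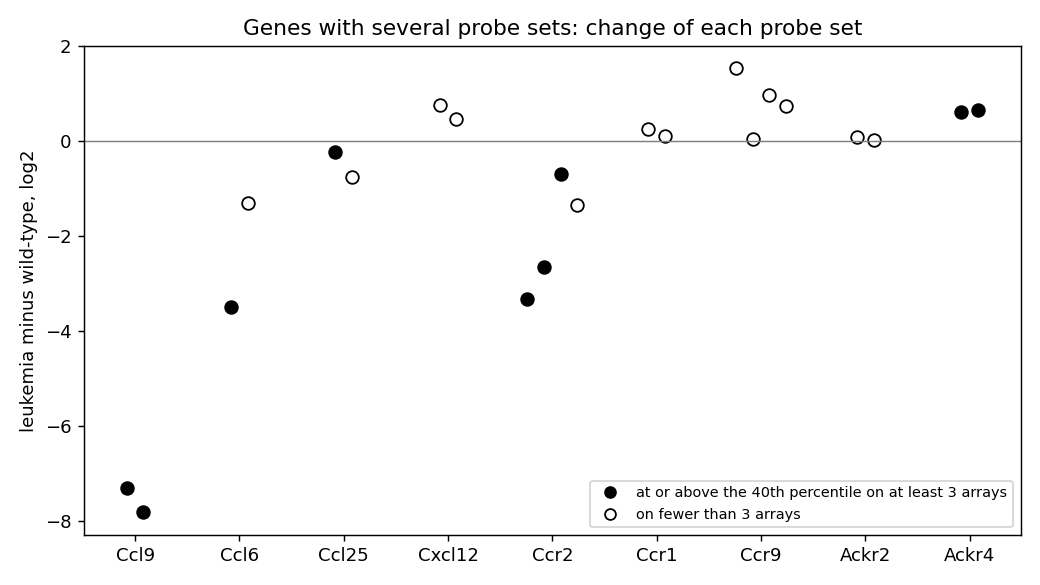
Change of every probe set of the 9 genes that have several, as the log2 change in leukemia relative to wild-type; filled circles reach the 40th percentile on at least 3 arrays. Both probe sets of Ccl9 lie near -7.30 and below, the 4 of Ccr2 spread from -3.32 to -0.68, and 3 of the 4 of Ccr9 lie above 0.5.

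Of 29 ligand and receptor pairs listed from general knowledge, 9 had both partners measured. For Cxcl12 and Cxcr4 the receptor fell by 5.34 while the ligand was dim on all but leukemia array 2. For Ccr1 the receptor differed by 0.26, while its ligands Ccl9, Ccl6 and Ccl5 changed by -7.30, -3.49 and -2.87 and its dim ligand Ccl3 differed by -0.97. For Cxcl13 and Cxcr5, both dim, the ligand differed by 0.10 and the receptor by -0.33. For Ccr2 the receptor fell by 3.32 while its measured ligand Ccl7 was dim and differed by 0.04. For Ccl25 and Ccr9 the ligand differed by -0.22 and the receptor by 1.54. Cx3cl1, the partner of Cx3cr1, differed by -0.10 ± 0.17 SE (limma adjusted p = 0.666), and it and Cx3cr1 were the 1 pair of the 9 with both partners tested.

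Many of these genes are neighbours, and their order was taken from RefSeq (GRCm38.p6). Ccl5, Ccl9, Ccl6, Ccl3 and Ccl4 follow each other with 0 other protein-coding genes between them, and their differences were -2.87, -7.30, -3.49, -0.97 and -0.70. Ccl7 lies on the same chromosome 29 protein-coding genes away and differed by 0.04. In the CXC cluster, Ppbp and Pf4, platelet chemokines that carry other names, are followed directly by Cxcl3, Cxcl15, Cxcl1 and Cxcl2. Ppbp fell by 2.92 ± 0.25 SE (limma adjusted p = 1.68e-04), and fell by 1.53 with values raised to the percentile. Pf4 fell by 3.85 ± 0.44 SE (limma adjusted p = 6.29e-04), whereas the next 3 genes differed by 0.00, -0.15 and 0.04 and Cxcl2 by 1.29 mainly through leukemia array 1. In the receptor cluster Ccr9, Ccr1 and Ccr2, with 3 and 2 other genes between them, differed by 1.54, 0.26 and -3.32. The 5 adjacent CC ligands were thus all lower in leukemia without overlap, as were 30.8% of all genes measured. Past the test were 3 of them, beside 25.2% of all genes tested, while Ccl3 and Ccl4 were dim and not tested. Of these receptors only Ccr2 was tested, and the higher means of Ccr9 and Ccr1 are those of dim genes. No test was made of position.

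**Figure D4:**
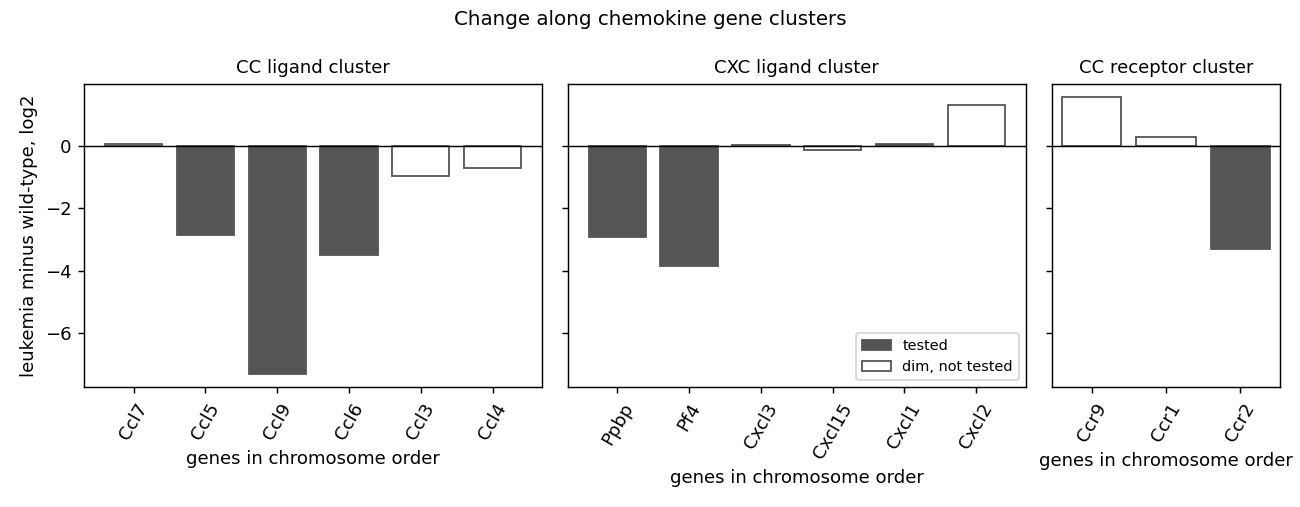
Leukemia minus wild-type difference (log2) of chemokine genes in chromosome order in 3 clusters; filled bars are tested genes and open bars dim ones. The 5 adjacent CC ligands from Ccl5 to Ccl4 all lie below zero, with Ccl9 lowest at -7.30, whereas in the CC receptor cluster Ccr9 is at 1.54 and Ccr2 at -3.32.

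Genes of the same family under other names did not share 1 direction. Pf4 and Ppbp fell as given above. Ccrl2, an atypical receptor for the attractant chemerin, rose by 1.52 ± 0.15 SE (5.96, 5.92 and 5.68 log2 in wild-type, 7.31, 7.38 and 7.42 in leukemia; limma adjusted p = 3.02e-04). Of the 4 genes measured from that list, all tested, 1 rose and 2 fell, beside 16.9% higher and 25.2% lower over all genes tested.

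The signalling genes downstream of the receptors showed no common direction. Of 44 genes listed 40 were measured and 39 tested, of which 6 rose and 8 fell, beside 16.9% higher and 25.2% lower over all genes tested; the medians were 0.00 and -0.09. The larger falls were those of Rgs18, a regulator that shortens G protein signals, at -3.53 ± 0.26 SE (limma adjusted p = 9.09e-05), of Elmo1, which partners Dock2 in activating Rac, at -1.50 ± 0.25 SE (0.00363), and of Prex1, a Rac activator, at -1.27 ± 0.19 SE (0.00197). Elmo1 was at -0.43 with the mean of its probe sets (limma adjusted p = 0.179). The larger rises were those of Rap1a, a GTPase that activates integrins, at 0.69 ± 0.09 SE (limma adjusted p = 0.00135), of the integrin adaptor Fermt3, at 0.58 ± 0.06 SE (2.85e-04), and of Grk6, a receptor kinase, at 0.51 ± 0.08 SE (0.00304). The call of Grk6 was lost, and its direction turned, with the mean of its probe sets (-0.08, limma adjusted p = 0.729) and when probe sets that can read several transcripts were left out (-0.26, 0.140). That of Fermt3 was lost with the latter (0.55, limma adjusted p = 0.0617).

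Of 11 measured genes that modify or present chemokines, 8 were tested, of which 2 rose and 2 fell (beside the same 16.9% and 25.2%). Tpst1 and Tpst2, which add sulfate to receptor tyrosines, fell by 1.15 ± 0.28 SE (limma adjusted p = 0.0152) and 0.91 ± 0.16 SE (0.00421), and Tpst1 no longer passed on leaving out wild-type replicate 2 (0.0551) or 3 (0.0623) or on blocking by fluidics run (0.0506). Ext1, a heparan sulfate polymerase, rose by 1.10 ± 0.21 SE (limma adjusted p = 0.00548). The protease gene Adam10 rose by 0.30 ± 0.09 SE (limma adjusted p = 0.0309), which did not hold on leaving out wild-type replicate 1 (0.108) or 2 (0.105) or leukemia replicate 2 (0.0666) or 3 (0.0583), with no intensity trend (0.0546) and with the replicate block (0.0792).

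The arrays and markers of other cell types moved with the groups. Across all probe sets, wild-type arrays correlated at 0.992 to 0.994 with each other and leukemia arrays at 0.969 to 0.978 (Pearson's r). Leukemia replicate 1 had the lowest array weight (0.191), the highest 18S ribosomal RNA signal (12.35 log2, beside 11.14 and 11.25 on the other leukemia arrays and 7.77 to 9.41 in wild-type) and was processed in the same fluidics run as wild-type, unlike leukemia replicates 2 and 3. The Gapdh 3′ minus 5′ difference was also highest on it (0.31, beside 0.08 and 0.01 in leukemia and -0.14 to -0.06 in wild-type) and was higher on every leukemia array than on any wild-type array. That of Actb was likewise highest on leukemia replicate 1 (0.70) but overlapped between the groups. It was 0.31 and 0.34 on leukemia replicates 2 and 3 and 0.32 to 0.50 in wild-type. The part of RNA quality in the falls was not tested. Without leukemia replicate 1 the 6 falls were -7.55 (Ccl9), -5.26 (Cxcr4), -3.51 (Ccl6), -3.39 (Ccr2), -3.04 (Ccl5) and -1.70 (Cx3cr1), and with the run as a block, which sets that array alone against wild-type, they were -6.79, -5.48, -3.44, -3.18, -2.53 and -1.07. Among tested members the leukemia SD was the larger for 10 of 11 genes (medians 0.41 and 0.21), as it was for 7445 of the 9715 genes tested (medians 0.22 and 0.11). With the dim members included, it was the larger for 26 of 29 (medians 0.34 and 0.19). Kit, the receptor used in the sort, was at 9.34 to 9.80 log2 in leukemia and at 10.35 to 10.42 in wild-type by its brightest probe set, and its change of -0.76 became -0.02 with the mean of its probe sets (limma adjusted p = 0.945). Of the sort and of blood cells, 5 genes were measured (Kit, Ly6e, Itgam, Ptprc and Gata1). Their sum was 7788.2 to 8075.1 in wild-type and 3164.2 to 6088.2 in leukemia, but the genes did not move together. Ptprc changed by -7.64 with its brightest probe set (limma adjusted p = 4e-06), and by -7.81 to -3.91 over the alternative settings. Ly6e was at 11.33, 11.33 and 6.12 log2 on leukemia arrays 1 to 3 and did not pass (-1.95, limma adjusted p = 0.268). Gata1 was higher in leukemia without overlap and did not pass (0.45, limma adjusted p = 0.108). The lineage marker gene Itgam was below the percentile on all arrays.

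**Figure D5:**
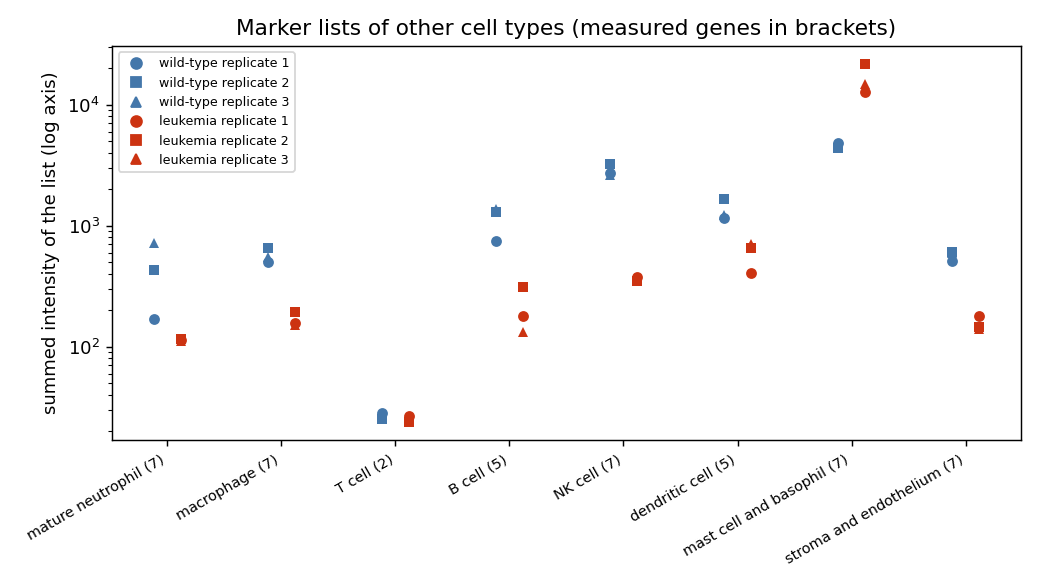
Summed linear intensity (log axis) of marker genes of other cell types on each array, with the number of measured genes of each list in brackets; circles, squares and triangles are replicates 1 to 3. The mast cell and basophil sum is higher on all leukemia arrays, the T cell sums overlap, and the other 6 sums are lower on all leukemia arrays.

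Some of the genes that fell are also known from mature cells. Summed over 7 of 8 macrophage markers, intensity was 496.3 to 659.1 in wild-type and 151.3 to 193.9 in leukemia, with Adgre1, Mrc1 and Cd5l below the percentile on all 6 arrays. Cd68 (a change of -3.14) was the brightest of the 7 in wild-type. C1qa and C1qb fell too (-1.67 and -1.81), whereas Vcam1 did not pass (-0.52, limma adjusted p = 0.103). Over 7 of 8 neutrophil markers the sum was 169.6 to 724.5 against 110.4 to 115.9, with Mmp8 and Cd177 below on all arrays. On wild-type replicate 1, 0 of the 7 were above the percentile. By their brightest probe sets, Ccl9, Ccl6, Ccl5, Cxcr4 and Ccr2 were lower on that wild-type array than on the others, and Cx3cr1 was higher there. The probe sets of Ccr2 differed in this. On wild-type arrays 1 to 3, one was at 6.09, 5.52 and 4.67 log2 and another at 6.03, 6.42 and 5.92. The macrophage, B cell, dendritic cell and stromal sums were also the lowest of wild-type on wild-type replicate 1, unlike the NK cell, T cell and mast cell sums. How many of all genes were lowest there was not counted. Over 7 of 8 NK cell markers the sum was 2598.6 to 3256.8 against 346.2 to 378.7, with Gzma, Klrd1 and Eomes below on all arrays. That sum was carried mainly by Nkg7 (a change of -3.64) and Gzmb (-4.67), whereas Prf1 was higher in leukemia without overlap and did not pass (0.31, limma adjusted p = 0.129). Over 5 of 8 B cell markers it was 742.1 to 1380.0 against 132.5 to 309.9, with Ms4a1 below. The B cell sum was carried mainly by Ighm (a change of -4.69). Cd79b overlapped between the groups and did not pass (-0.98, limma adjusted p = 0.15), and the dim genes Blnk and Cd22 were lower in leukemia without overlap. Over 5 of 8 dendritic cell markers the sum was 1148.2 to 1651.4 against 404.7 to 704.2, with Cd209a below. Flt3, which progenitors also express, changed by -3.95 there, whereas Bst2 differed by -0.23 and the dim gene Zbtb46 was higher in leukemia without overlap (1.31). Over 7 of 9 stromal and endothelial markers it was 511.4 to 603.8 against 140.1 to 178.4, with Col1a1, Col3a1 and Cdh5 below. Pecam1, which blood cells also express, changed by -4.61 there, whereas Sparc, Col1a1 and Col3a1 differed by 0.02, 0.14 and 0.11 and the median over the list was -0.03. The 2 measured T cell markers, Cd5 and Cd8a, were below the percentile on all arrays, at sums of 25.5 to 28.2 against 23.8 to 26.5. Of 7 measured mast cell and basophil markers 6 were tested. Of these 4 rose and 1 fell, beside 16.9% higher and 25.2% lower over all genes tested. The sum of the 7 was 4388.9 to 4854.5 against 12708.1 to 21742.7. The 1 that fell was Mcpt8, which changed by -5.67 ± 0.40 SE (limma adjusted p = 7.8e-05), and Cpa3 did not pass (0.17, limma adjusted p = 0.822). The part of any of these cells in the falls of Ccl9, Ccl6, Ccl5, Cxcr4, Ccr2 and Cx3cr1 was not tested.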

How the data were processed

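Affymetrix Mouse430_2 arrays were hybridised with 200 ng of total RNA from each of 3 wild-type and 3 leukemia samples, per the labels. The authors deposited linear intensity values (3.31 to 18869). RMA is named in the submitters' processing notes, and its version and settings are not given in the sources used here. RMA usually gives log2 values, as the planned test assumed, so log2 was taken of the table with no pseudocount. All 6 value columns were mapped to samples. The array run records gave the fluidics run of each array (2 runs).

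Of 28821 probe sets, 23750 had 1 gene symbol in the platform annotation, and 677 with several, 4355 with none and 39 controls were left out. The groups were compared in R 4.3.3 with limma 3.58.1, by lmFit and by eBayes with a trend on mean intensity. Tests were two-sided with 4 residual degrees of freedom, and p-values were adjusted by Benjamini-Hochberg across the 9715 tested genes, at a threshold of 0.05. The procedure was first tested on simulated data. The small number of arrays (6) limits the precision. Replicates of the same number were not paired: their deviations from the group means correlated at -0.07, 0.05 and 0.03. Genes named from the signalling, processing and other-name lists were up to 3 of the largest changes in each direction past the threshold. The member genes, lists and alternatives were chosen with earlier results of these data known. Figures were drawn with matplotlib 3.10.9.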

Additional observations from a re-analysis of the deposited data

How the results depend on the processing

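The 6 falls (Ccl9, Cxcr4, Ccl6, Ccr2, Ccl5 and Cx3cr1) passed in the same direction in all 110 refits in which the gene was tested, over 19 alternatives. Ccl5, Ccl6 and Cx3cr1 were not tested under the stricter filter (60th percentile), where the count of member genes lower was 3, nor was Ccl6 with the mean of its probe sets. The count of members higher, 0, became 1 with no filter on dim genes (Ccr9), 1 with array weights (Ackr1, 1.02, limma adjusted p = 0.0450), 2 with the fluidics run as a block (Ackr4, 1.13, 0.00919, and Ccl17, 1.31, 0.00685) and 0 to 1 on leaving out each array (Ccl17 without leukemia replicate 3). Members lower stayed at 6 on leaving out each array. Ccl25 turned to 0.11 with the fluidics run as a block, and Cxcl1 to -0.018 without wild-type replicate 3 and -0.014 without leukemia replicate 1 (range -0.018 to 0.082 on leaving out each array); neither gene passed in any setting. With the replicate block the counts were 0 higher and 6 lower for members and 1445 higher and 2120 lower for all genes; the numbers do not pair the samples. Of the signalling genes, 3 rose with probe sets free of shared endings and 13 fell with the fluidics run as a block, and leaving out each array gave 3 to 8 higher and 5 to 9 lower, the lowest without wild-type replicate 3. Over all genes, leaving out each array gave 1106 to 1938 higher and 1513 to 2778 lower, the lowest count of falls without wild-type replicate 3. In the main setting 1637 were higher and 2452 lower. Higher were 1363 with probe sets free of shared endings, 1756 with no filter, 1878 with array weights and 1490 without leukemia replicate 3. Lower were 1843 under the stricter filter. With the fluidics run as a block, both counts over all genes were larger than in the main setting. The counts over all genes thus moved as well. Centring moved the median change of all genes tested from -0.09 to -0.01. The cause of these shifts was not tested. The sizes of all 6 falls rest on leukemia values below the 40th percentile.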
